A study of Ursus arctos with 5 samples.

Results

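Translation factors and aminoacyl-tRNA synthetases were followed through hibernation in grizzly bear muscle. Members were all transcripts whose gene name begins with EIF or EEF and a digit, or is that of a synthetase by the pattern of an amino acid letter followed by ARS or ARS2, with FARSA, FARSB and EPRS. They came to 64 transcripts of 38 genes, out of 9093 annotated transcripts of 4873 genes in a table of 26614 transcripts. Of these genes, 18 were counted as initiation factors or their regulators, EIF1AD among them by its name, and 17 code for synthetases. Another 3 carry the older names EIF2C1, EIF2C2 and EIF2C4 but code for Argonaute proteins of small RNA silencing, and they are given apart, a choice made after the names were seen. No EEF gene and no EIF5A was among the annotated transcripts, so elongation was not analysed here.

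Muscle biopsies of the gastrocnemius came from a captive subadult and a captive adult grizzly bear. They were taken in October from the active, fed animals and in February from the same animals in hibernation, when feeding had stopped. Both bears were sampled in both states, which gave 4 single-end libraries, 1 per bear and state, and no repeat within a bear. The labels hold 1 sample per state with both bears and state an age of 10 years throughout, so which column is the subadult was taken from the age classes in the study's supplementary table, where all 64 members carried the same 4 values. The data cover these 2 animals alone, and season, feeding and immobility cannot be told apart.

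A protein is begun when the small ribosomal subunit, carrying EIF3 and the ternary complex of EIF2, GTP and initiator tRNA, is brought to the capped end of an mRNA by EIF4F. EIF2 must be recharged with GTP by EIF2B between rounds, a step that the EIF2 kinases block under stress, and the EIF4E-binding proteins hold back cap binding when mTOR signalling is low. Aminoacyl-tRNA synthetases join each amino acid to its tRNA, with separate enzymes for the cytosol and for mitochondria in most cases. Muscle is a large store of body protein, and protein synthesis is a costly process that fasting and disuse are known to restrain.

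Depth, recovered from the steps of the low values, was 44.7 to 54.2 M (mega) aligned reads per library, lowest in the active adult. Summed over all member transcripts, members held 0.271% of the reads in both hibernating libraries, 0.227% in the active subadult and 0.234% in the active adult. Transcripts of a gene could hold equal counts, as in EIF3D with 2245 and 2245 reads in the hibernating subadult. Reads that match several transcripts may thus be counted more than once in these shares. Between 25 and 14295 reads lay behind a single value. RPKM is reads per kilobase of transcript, scaled to the aligned reads of the library, and every deposited transcript is at 1 RPKM or more in every library. A gene is described by its transcript with the most reads, and paired values are given with hibernation first and activity second. Muscle fibre genes were abundant in all libraries, with a summed RPKM of 9470 to 13700 over the 4 of 10 listed that were measured, and none of 4 blood genes was measured. Bulk RNA cannot separate fewer cells of a type from less RNA per cell.

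On the deposited scale initiation genes were mostly higher in hibernation. In 11 of 18 (61.1%) both hibernating libraries were above both active ones and in 0 were they below, against 35.8% and 8.11% of all 4873 annotated genes. After scaling by the median ratio between libraries, 7 were higher and 3 lower, against 20.4% and 17.1% of all genes. By the upper quartile they were 5 and 3, against 18.4% and 19.6%. Their median difference, hibernating minus active on the log2(RPKM + 0.5) scale, was 0.35, against 0.15 over all genes, with 0.19 after median-ratio and 0.15 after upper-quartile scaling. In the subadult it was 0.45 and in the adult 0.27, where all genes had 0.13 and 0.17. The direction was upward in both bears for 13 of the 18 (48.7% of all genes), downward in both for 1, EIF2AK2 (16.1% of all genes), and mixed for 4. Among genes of 5 RPKM or more, 9 of 15 were higher without overlap, against 41.0%.

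**Figure D1:**
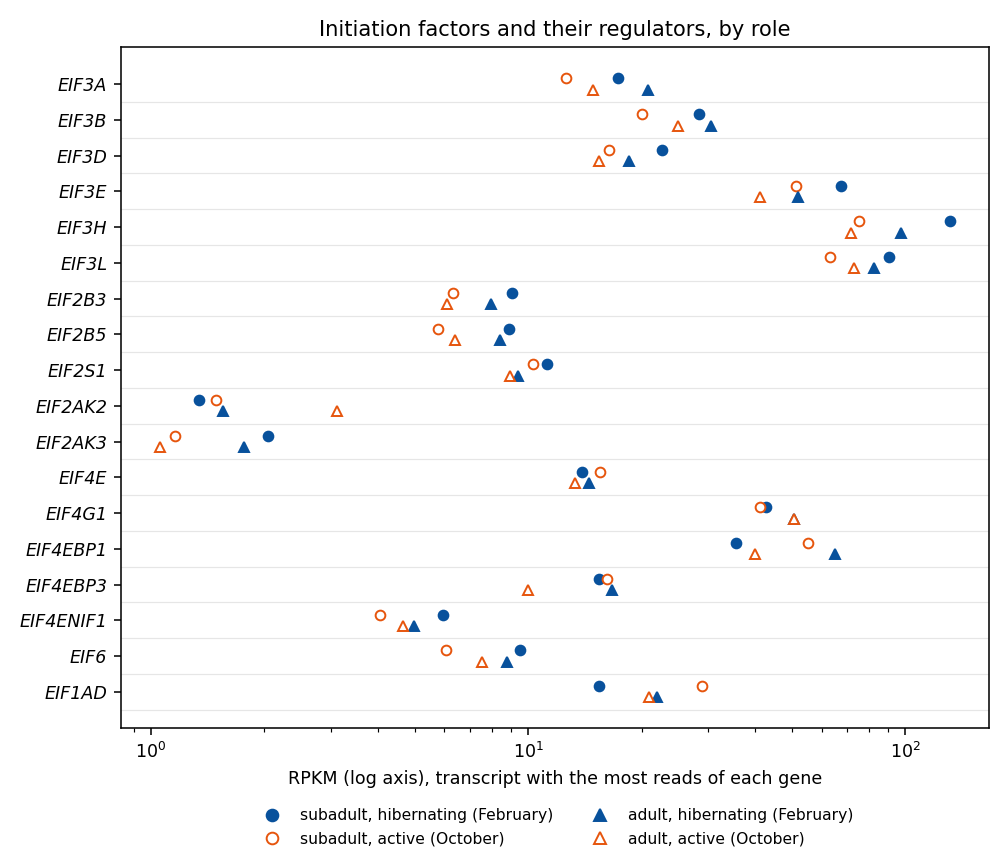
RPKM on a log axis of 18 initiation genes in 4 libraries, with circles for the subadult, triangles for the adult, filled symbols for hibernation and open symbols for activity. All 6 EIF3 subunits and both EIF2B subunits have filled symbols to the right of the open ones. EIF4EBP1 moves in opposite directions in the bears, and EIF1AD is far apart in the subadult only.

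No single difference passed the tests. With limma, 0 of 64 member transcripts and 0 of 9093 annotated transcripts (0.0%) reached an adjusted p of 0.05, and members lay between 0.541 and 0.990. An unadjusted p under 0.05 was found in limma for 4 member transcripts, all higher in hibernation, next to 7.19% of annotated transcripts in that direction and 1.89% in the other. They belong to EIF3H, EIF2AK3, EIF2C4 and QARS. The score of the study's own kind, a NOISeq-like probability with a threshold of 0.8, was reached by 3.98% of genes and 3.61% of transcripts, and by no member, with EIF3H highest at 0.758. For any single value 2 libraries against 2 cannot give a two-sided exact permutation p below 0.333.

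EIF3, the largest initiation complex, binds the small subunit and gathers the other factors there. Of 16 genes listed for it, 6 were measured, and all 6 were higher in hibernation without overlap between states. That held for 35.8% of all genes and 41.0% of those at 5 RPKM or more, the level of all 6. Their median log2 difference was 0.37, with 0.47 in the subadult and 0.31 in the adult.

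EIF3H, a core subunit, was measured at 131 RPKM in hibernation and 75.4 in activity for the subadult, and at 97.2 and 71.9 for the adult. Folds were 1.74 for the subadult and 1.35 for the adult, with the largest log2 difference of the initiation genes at 0.61 ± 0.25 (SE, limma, adjusted p = 0.549). EIF3A, which forms the scaffold of the complex, stood at 17.3 and 12.6 RPKM in the subadult and at 20.8 and 14.9 in the adult. Both bears were close here, with folds of 1.37 and 1.40.

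EIF3L, another core subunit, was measured at 90.3 and 63.2 RPKM in the subadult and at 82.7 and 73.0 in the adult. Its adult fold of 1.13 was the smallest of the 6 subunits. The remaining subunits, named after their values were seen, were EIF3B with a log2 difference of 0.39, EIF3D with 0.36 and EIF3E with 0.36, each higher in both bears.

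Part of the EIF3 difference lay in the scale. RPKM divides by all aligned reads, and scaling by the median ratio between libraries lowered every log2 difference by about 0.11 in the subadult and 0.22 in the adult. On that scale 4 of the 6 subunits had no overlap between states (EIF3A, EIF3B, EIF3D and EIF3H), next to 20.4% of all genes higher and 17.1% lower. EIF3L turned to -0.04 in the adult, and 5 of 6 were higher in both bears, against 30.3% of all genes. The medians over the 6 were 0.36 for the subadult and 0.09 for the adult.

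**Figure D2:**
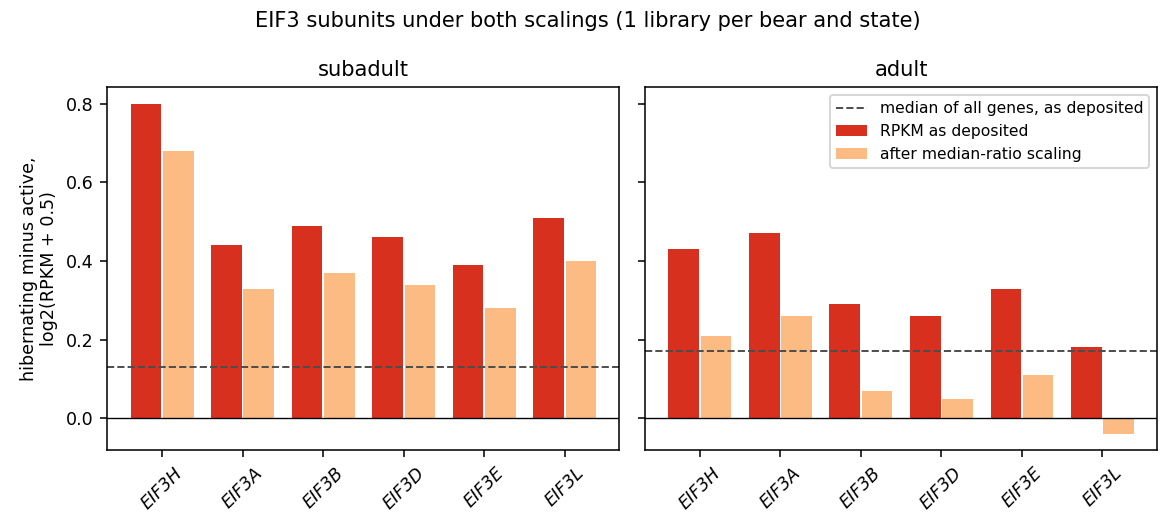
Bars give the log2(RPKM + 0.5) difference, hibernating minus active, of 6 EIF3 subunits in the subadult (left) and the adult (right), from RPKM as deposited (red) and after median-ratio scaling (light); each bar is 1 pair of libraries, with no error bar, and the dashed line is the median of all genes as deposited. All bars are above 0 except EIF3L in the adult after scaling, at -0.04.

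For EIF2 and its exchange factor, 3 of 11 listed genes were measured, with a median log2 difference of 0.42. EIF2B5, the catalytic subunit of EIF2B, was at 8.91 RPKM in hibernation and 5.76 in activity for the subadult, and at 8.41 and 6.39 for the adult. Its log2 difference was 0.48 ± 0.21 (SE, limma, adjusted p = 0.573). EIF2B3, another subunit of the catalytic part, named after its values were seen, had 9.08 and 6.33 RPKM in the subadult and 7.95 and 6.09 in the adult. Neither subunit overlapped between states, also after median-ratio scaling. Of all genes, 35.8% were higher without overlap as deposited and 20.4% after that scaling. EIF2S1, the subunit of EIF2 that the kinases phosphorylate, also named so, was at folds of 1.09 and 1.05, and its sign turned with the scaling (log2 difference 0.09 as deposited, -0.07 by the median ratio).

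The 2 measured EIF2 kinases of 4 differed in direction. EIF2AK3, known as PERK, the kinase of endoplasmic reticulum stress, had 2.05 and 1.16 RPKM in the subadult and 1.77 and 1.06 in the adult. Folds were 1.77 and 1.67, with a log2 difference of 0.58 ± 0.18 (SE, limma, adjusted p = 0.541). Its active values lie next to the minimum of 1 RPKM that the table requires, and only 68 reads stood behind the lowest of the 4.

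EIF2AK2, known as PKR, which is activated by double-stranded RNA, was measured at 1.34 and 1.49 RPKM in the subadult and at 1.55 and 3.12 in the adult. The active adult stood alone at the high value, and the states overlapped as deposited. The log2 difference was -0.47 ± 0.31 (SE, limma, adjusted p = 0.668). After median-ratio scaling EIF2AK2 was at -0.2 in the subadult and -1.0 in the adult. It was then lower without overlap between states, as were 17.1% of all genes.

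Cap binding showed little difference on the deposited scale. EIF4G1, the scaffold of EIF4F, had 42.8 and 41.1 RPKM in the subadult and 50.8 and 50.7 in the adult, folds of 1.04 and 1.00. EIF4E, the cap-binding protein, named after its values were seen, had folds of 0.90 and 1.09. After median-ratio scaling EIF4E was at -0.26 in the subadult and -0.09 in the adult on the log2 scale. It was then lower without overlap between states, as were 17.1% of all genes. EIF4G1 and EIF4E were 2 of 12 genes listed for cap binding and EIF4F, so EIF4A and EIF4B were not analysed here.

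The repressors of EIF4E split by bear. EIF4EBP1, the main target of mTOR among them, was at 35.6 RPKM in hibernation and 55.2 in activity for the subadult, but at 65 and 39.9 for the adult. The fold was 0.64 for the subadult against 1.63 for the adult, so that the mean log2 difference of 0.04 ± 0.35 (SE, limma, adjusted p = 0.977) hides opposite movements of similar size. Both transcripts of the gene fell in the subadult and rose in the adult, with mean log2 differences of 0.04 and 0.07.

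EIF4EBP3, named after its values were seen, likewise had folds of 0.95 in the subadult and 1.68 in the adult. Its sequence is shared with readthrough transcripts from the neighbouring ANKHD1 gene, and which of the reads belong to which gene is uncertain. EIF4ENIF1, which carries EIF4E into the nucleus and was named after its values were seen, had folds of 1.47 and 1.07. EIF4EBP2 was not measured.

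Of the remaining initiation genes, EIF6, which keeps the large subunit from joining the small one too early, was at 9.50 and 6.06 RPKM in the subadult and at 8.77 and 7.57 in the adult. The folds were 1.57 and 1.16, and the adult value turned to -0.01 on the log2 scale after median-ratio scaling. EIF1AD, a protein with a domain like that of EIF1A, was at 15.4 and 28.9 RPKM in the subadult and at 22.0 and 20.9 in the adult. Only the subadult pair was far apart, with folds of 0.53 and 1.05, and the log2 difference was -0.41 ± 0.28 (SE, limma, adjusted p = 0.672). After median-ratio scaling EIF1AD was at -1.0 in the subadult and -0.15 in the adult, lower without overlap between states.

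**Figure D3:**
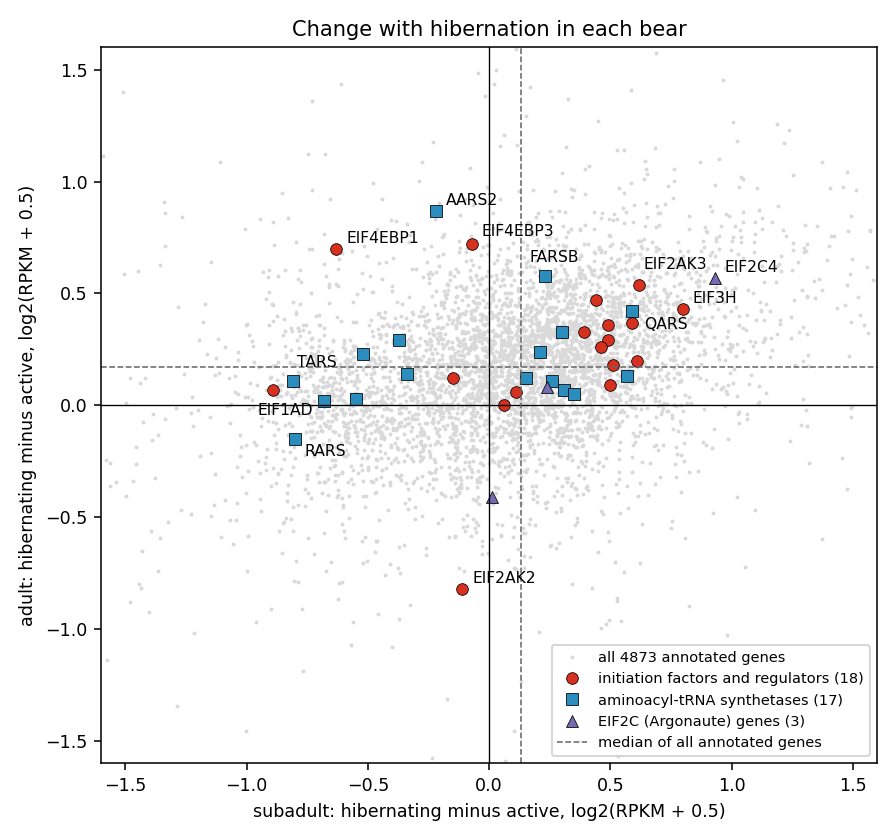
Hibernating minus active on the log2(RPKM + 0.5) scale in the subadult (x) and the adult (y) for 4873 annotated genes (grey) and the 38 members by class; dashed lines mark the medians of all genes, and 106 genes lie beyond the axes. Most initiation genes are at the upper right, synthetases spread from there to the upper left, and EIF2AK2 is the lowest member.

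Synthetases stood closer to the rest of the genome. Both hibernating libraries were above both active ones in 7 of 17 genes (41.2%), against 35.8% of all genes, and below them in 0, against 8.11%. After median-ratio scaling 3 were higher and 3 lower, against 20.4% and 17.1% of all genes. By the upper quartile they were 3 and 4, against 18.4% and 19.6%. Their median log2 difference was 0.19, with 0.15 for the subadult and 0.13 for the adult. Over all genes the median was 0.15. After median-ratio scaling the synthetase median was 0.03, against -0.0 over all genes. The 7 genes on the deposited scale are QARS, KARS, DARS, FARSA, FARSB, VARS and IARS2. Whether synthetases and initiation genes differ was not tested.

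**Figure D4:**
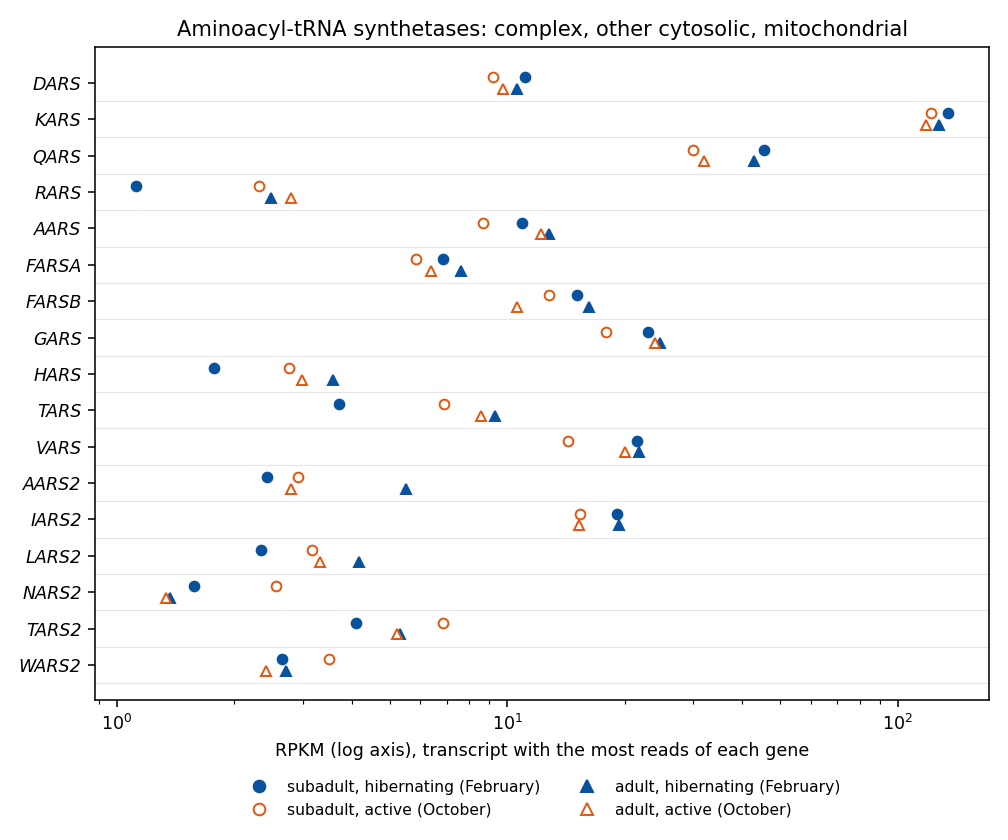
RPKM on a log axis of 17 synthetase genes in 4 libraries, with circles for the subadult, triangles for the adult, filled symbols for hibernation and open symbols for activity; genes of the multisynthetase complex are at the top, other cytosolic ones in the middle and mitochondrial ones at the bottom. KARS is highest at 118 to 135 RPKM, and in RARS, HARS, TARS, AARS2, LARS2 and TARS2 the hibernating subadult is the lowest of the 4 libraries.

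In the multisynthetase complex, a scaffolded group of cytosolic synthetases, 4 of 8 genes were measured. Of these, 3 were higher without overlap, against 35.8% of all genes. QARS, the enzyme for glutamine, was at 45.4 RPKM in hibernation and 30.0 in activity for the subadult, and at 42.9 and 31.9 for the adult. With folds of 1.51 and 1.35 and a log2 difference of 0.51 ± 0.20 (SE, limma, adjusted p = 0.549), it had the largest mean log2 difference among synthetases. After scaling by the median ratio the log2 differences were 0.48 for the subadult and 0.21 for the adult. KARS, the enzyme for lysine and for both compartments, was at 135 and 122 RPKM in the subadult and at 128 and 118 in the adult.

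KARS was the most abundant member per length, at the 97.3 percentile of all genes, and its folds were 1.11 and 1.09. By the median ratio its log2 differences were 0.03 and -0.10. RARS, the enzyme for arginine, was at 1.12 and 2.31 RPKM in the subadult and at 2.48 and 2.80 in the adult, with folds of 0.48 and 0.89. It was the only synthetase lower in both bears, at a log2 difference of -0.47 ± 0.33 (SE, limma, adjusted p = 0.675). The value rests on a fragment of 535 bases with 30 reads in the poorest library.

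Among cytosolic synthetases outside the complex, 7 of 12 were measured and 3 were higher without overlap, against 35.8% of all genes. FARSB, the beta subunit of the enzyme for phenylalanine, was at 15.1 and 12.8 RPKM in the subadult and at 16.2 and 10.6 in the adult. The fold was larger in the adult (1.52) than in the subadult (1.18), and FARSA, the alpha subunit of the same enzyme, named after its values were seen, had 1.20 in the adult and 1.17 in the subadult. VARS, the enzyme for valine, had 21.5 and 14.3 RPKM in the subadult and 21.8 and 20.0 in the adult, and only the active subadult stood apart.

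AARS and GARS, the enzymes for alanine and glycine, named after their values were seen, were higher in both bears but overlapped between states, with adult folds of 1.05 and 1.03. TARS, for threonine, also named so, had 3.71 and 6.89 RPKM in the subadult and 9.29 and 8.58 in the adult. HARS, for histidine, named in the same way, had folds of 0.64 in the subadult and 1.20 in the adult.

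Mitochondrial synthetases, of which 6 of 17 were measured, were all higher in the adult on the deposited scale. On that scale 5 of them were lower in the subadult. IARS2, the mitochondrial enzyme for isoleucine, was at 19.1 and 15.4 RPKM in the subadult and at 19.4 and 15.3 in the adult, folds of 1.24 and 1.26. Its other transcript differed from this one by 0.55 on the log2 scale and was at -0.09 in the adult. The remaining 5 (AARS2, LARS2, NARS2, TARS2 and WARS2) fell in hibernation for the subadult but rose for the adult. A split in this direction was found in 23.4% of all genes and in 7 of the 17 synthetases.

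AARS2, for alanine in mitochondria, was at 2.43 and 2.92 RPKM in the subadult and at 5.50 and 2.80 in the adult, so that the hibernating adult stood alone above the others. Its folds were 0.83 and 1.97. NARS2 and TARS2, chosen after their values were seen, had adult folds of 1.03 and 1.02. After median-ratio scaling their adult log2 differences were -0.13 and -0.18, and that of WARS2 was -0.05. Another transcript of LARS2 and another of WARS2 were lower in the adult as deposited, at -0.06 and -0.08. Over the 6 genes the median log2 difference was -0.36 for the subadult and 0.21 for the adult, and -0.45 and 0.03 after median-ratio scaling. Cytosolic HARS and TARS moved in the same way, and a difference between compartments was not tested.

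On the deposited scale, synthetases lower in the hibernating subadult were mostly of low level, a description with no test. All 6 with a mean under 5 RPKM (RARS, HARS, AARS2, LARS2, NARS2 and WARS2) were lower in the hibernating subadult, against 44.8% of all genes at that level, and 1 of 6 was lower in the adult, against 30.1%. Of the 11 synthetases at 5 RPKM or more, 2 (TARS and TARS2) were lower in the subadult, against 33.9% of genes at that level, and 0 in the adult, against 25.5%. Among all members under 5 RPKM, 7 of 12 were lower in the subadult, and 4 of the 6 low synthetases are mitochondrial, so level and compartment overlap and their parts were not tested. The split at 5 RPKM is the filter used as an alternative elsewhere. The part of depth, of the 1 RPKM minimum and of fibre makeup in this was not tested. The 4 measured fibre genes were mixed. MYH1, the myosin of a fast fibre type, was at 2050 RPKM in hibernation and 4820 in activity for the subadult. For the adult it was at 7630 and 7800. MYH2, another myosin, was higher in both bears, at 3840 and 2760 in the subadult and 3860 and 3490 in the adult. MYH7 had 2870 and 3000 in the subadult and 1290 and 1840 in the adult. TTN had 700 and 794, then 155 and 598.

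**Figure D5:**
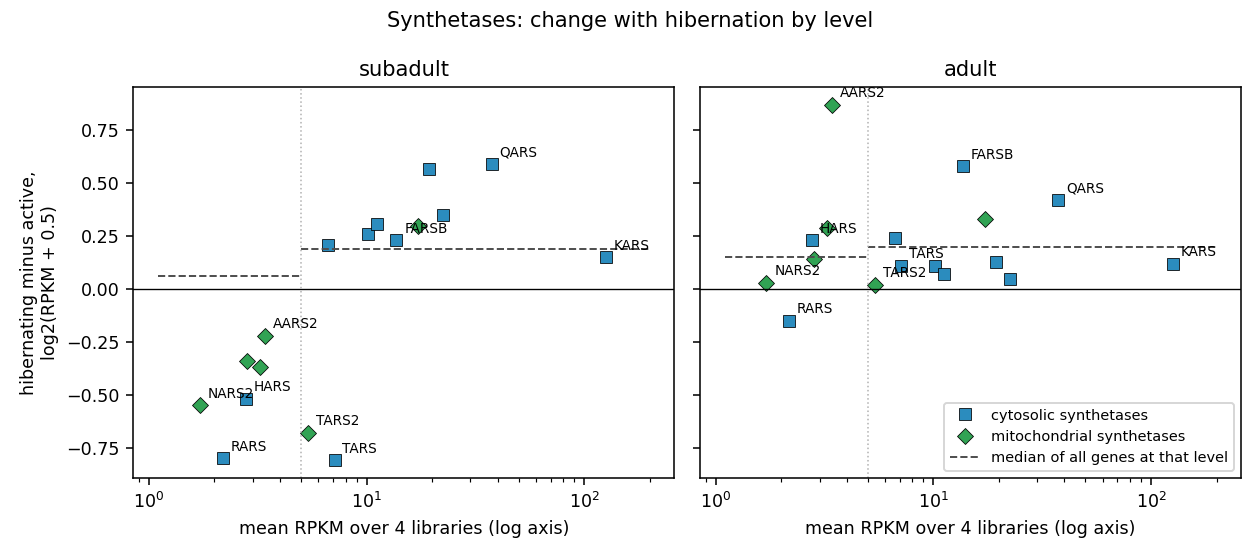
Difference between hibernation and activity on the log2(RPKM + 0.5) scale against the mean RPKM of 4 libraries (log axis) for 11 cytosolic and 6 mitochondrial synthetases, in the subadult (left) and the adult (right); dashed lines are medians of all genes under and from 5 RPKM. In the subadult all 6 genes under 5 RPKM are below 0, and in the adult RARS alone is.

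The Argonaute genes were low in level. EIF2C4, coding for AGO4, was at 3.86 and 1.80 RPKM in the subadult and at 4.49 and 2.86 in the adult. Its folds of 2.15 and 1.57 give a log2 difference of 0.75 ± 0.27 (SE, limma, adjusted p = 0.549), the largest of the 38 genes. EIF2C2, coding for AGO2, the Argonaute that cuts its targets, named after its values were seen, had folds of 1.00 and 0.72.

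EIF2C4 and EIF2AK3 were the 2 members at least 1.5-fold higher in both bears, a pattern found in 5.21% of all genes. No member was 1.5-fold lower in both, against 1.31%. Within the 17 genes that have several transcripts, all transcripts pointed the same way in 16, the exception being IARS2. Transcripts of a gene share sequence and are not independent readings.

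Markers of other cells also differed between the states, in mixed directions. CD68, the only one of 5 leukocyte markers measured, was at 6.41 and 3.94 RPKM in the subadult and at 7.12 and 3.28 in the adult. MYOD1, the only one of 3 satellite cell markers, was at 4.72 and 1.79 in the subadult and at 4.92 and 2.42 in the adult. Summed connective tissue markers, 4 of 7 measured, were 277 and 337 in the subadult and 230 and 160 in the adult. Within that sum COL3A1 was higher in both hibernating bears (254 and 116 RPKM for the subadult, 210 and 136 for the adult) and FBN1 lower (7.58 and 24.9, 7.27 and 14.1). COL1A1 was at 193 in the active subadult and at 11, 9.15 and 6.79 in the hibernating subadult, hibernating adult and active adult. The 1 measured fat cell marker, LPL, was at 63.4 and 120 in the subadult and at 19.8 and 18.8 in the adult, and endothelial PECAM1 had 10.8, 13.0, 11.6 and 7.53 in the same order. Their part in the results was not tested.

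Other genes of translation, taken from lists of 58 genes of which 29 were measured, were mixed. Both hibernating libraries were above both active ones in 9 and below them in 3, against 35.8% and 8.11% of all genes. PPP1R15A, known as GADD34, which helps remove the phosphate that the EIF2 kinases add, was at 13.6 and 6.38 RPKM in the subadult and at 10.4 and 5.82 in the adult. It was the only one of the 29 to reach the score of 0.8, at 0.826, with a log2 difference of 0.91 ± 0.23 (SE, limma, adjusted p = 0.541).

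In the integrated stress response list, 2 of 6 measured genes were higher without overlap, PPP1R15A and IMPACT, an inhibitor of the kinase GCN2, which had 4.74 and 3.21 RPKM in the subadult and 4.08 and 2.59 in the adult. The lowest log2 difference there was -0.07 for ASNS, asparagine synthetase. Termination and recycling had 3 of 5 higher and 0 lower, from DENR, a recycling factor, at 0.43 to GSPT2, a release factor, at -0.30. Poly(A) binding and cap-dependent regulators had 3 of 9 higher and 2 lower, from CYFIP1, a partner of FMRP, at 0.44 to MKNK2, a kinase of EIF4E, at -0.40.

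Mitochondrial translation factors had 1 of 8 higher (MRRF, the recycling factor, at 0.25) and 1 lower. The lower one, GFM1, the mitochondrial elongation factor G, was at 13.2 and 36.4 RPKM in the subadult and at 21.2 and 22.3 in the adult, with log2 differences of -1.43 and -0.07. The active subadult alone was high. The synthetase scaffold AIMP1 had 11.9 and 16.2 RPKM in the subadult and 10.8 and 11.3 in the adult.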

How the data were processed

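Single-end Illumina libraries of poly(A) RNA from gastrocnemius were analysed (4 libraries, 2 bears in 2 states). The authors assembled transcripts de novo (Newbler 2.3, SOAPdenovo), named them by BLAST against human proteins (Ensembl 66), aligned reads with SOAP2 at up to 2 mismatches and deposited RPKM with transcript lengths. Transcripts not named in this way count as unannotated. They entered the noise of the score, the factors of both scalings, the depth estimate and the share of listed reads. The limma fits and the gene counts left them out. The assignment of reads with several matching transcripts, the strand and any nuclease normalization of the single-end cDNA are not given in the sources used here. Listed transcripts hold 98.0% to 98.2% of aligned reads.

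RPKM times length came out as whole reads, within 0.1 read, for 93.9% to 97.8% of low values. They gave the depth only. On the deposited RPKM, log2(RPKM + 0.5) was tested with limma 3.58.1 (R 4.3.3, trended prior, Benjamini-Hochberg over 9093 annotated transcripts), 2 hibernating against 2 active libraries. Since each animal gave a library in both states, the bear pairs the samples (Pearson r of deviations 0.356 over 9093 transcripts). The main fit did not use this pairing, and the SE and adjusted p given for single genes come from that fit. The bear as a block was run as an alternative. As NOISeq was not installed, a score was written after its description. Both were tried on simulated data without pairing, in which the planted changes were far larger than that of any member. Their power for differences of the size seen here was not tested.

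Members, role lists and tests were chosen with earlier results of these data known. Named genes were the one with the most reads per role list, the 4 largest differences per class and direction among genes with 1 direction in both bears, EIF4EBP1, the measured EIF2 kinases and the 3 largest differences between bears. For the other lists they were genes at a score of 0.8 and the largest differences. Genes named beyond this are marked. Alternatives covered pseudocount, scaling, transcript choice, an RPKM minimum, the prior, the replicate block and left-out bears or libraries. Paired-end and pooled libraries were not used here. Tables were handled in Python 3.11.15 (pandas 2.3.3, numpy 2.4.6) and drawn with matplotlib 3.10.9.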

Additional observations from a re-analysis of the deposited data

Results flagged for a closer look

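In 3 genes the changes of the 2 bears had opposite signs and lay far apart. The gap is given here as the subadult difference minus the adult difference on the log2 scale. EIF4EBP1 had -1.32, with -0.63 in the subadult and 0.70 in the adult. AARS2 had -1.09, with -0.22 and 0.87. EIF1AD had -0.96, with -0.89 and 0.07, so its adult pair was nearly level. After median-ratio scaling EIF1AD was lower in both bears, at -1.0 and -0.15. With 1 pair of libraries per bear the difference between the bears was not tested in any of them.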

How the results depend on the processing

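With 2 bears, 1 library per bear and state, no member was called, and the replicate block by bear called 0 annotated transcripts as well, with a lowest adjusted p of 0.340 among members (limma). Only the fit without the hibernating adult called any annotated transcripts (92, none a member; range over left-out libraries 0 to 92). Of 38 genes, 20 kept their direction in every alternative run. Low genes are limited by reads, 25 at the least.

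Scaling reversed 7 genes at most, and leaving out a bear 8 at most. Under median-ratio scaling and then upper-quartile scaling, the initiation median was 0.19 and 0.15, with 7 and 5 genes higher without overlap and 3 and 3 lower. Over all genes the median was -0.0 and -0.04, with 20.4% and 18.4% higher and 17.1% and 19.6% lower. For synthetases the median was 0.03 and -0.01, with 3 and 3 higher and 3 and 4 lower. Of the EIF3 subunits, 2 stayed higher without overlap by the upper quartile, against 18.4% of all genes. By the median ratio, log2 differences turned to -0.07 for EIF2S1, -0.13 for EIF4EBP1, -0.13 for EIF4G1 and -0.03 for KARS, and by the upper quartile to -0.11, -0.17, -0.17 and -0.07, with -0.01 for AARS, DARS and EIF2C1. The synthetase median was 0.17 with the longest transcript, 0.20 among genes of 5 RPKM or more, and 0.13 to 0.15 with a bear left out. Leaving out a library gave 7 to 13 synthetases higher and 0 to 6 lower, and 0 to 3 initiation genes lower. The largest of these came without the hibernating subadult (13 higher) and without the hibernating adult (6 and 3 lower), settings in which 52.5% of all genes were higher and 25.0% lower without overlap, respectively.

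Leaving out bears or libraries turned the sign of 15 genes, which ranged from -0.05 to 0.43 in AARS, -0.22 to 0.87 in AARS2, -0.89 to 0.07 in EIF1AD, -0.41 to 0.01 in EIF2C2, -0.04 to 0.21 in EIF2S1, -0.15 to 0.12 in EIF4E, -0.63 to 0.70 in EIF4EBP1, -0.07 to 0.72 in EIF4EBP3, -0.12 to 0.18 in EIF4G1, -0.57 to 0.27 in HARS, -0.40 to 0.32 in LARS2, -0.63 to 0.10 in NARS2, -0.96 to 0.26 in TARS, -0.68 to 0.02 in TARS2 and -0.34 to 0.14 in WARS2. The cause was not tested. Elongation gave no value, as no such gene was a member.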
